A study of Mus musculus with 28 samples.

Results

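Ribosome footprints and total mRNA of MN1 cells were compared gene by gene to find which protein-coding genes carry many or few ribosomes for the amount of their mRNA. The members are all MN1 libraries, chosen by cell type and library type from the sample labels: 6 footprint and 6 total mRNA libraries, 12 of the 28 in the series. MN1 is a clonal line made by fusing mouse spinal motor neurons with cells of a mouse neuroblastoma, so every culture comes from the same clone. Cultures were transiently transfected with GFP, with tagged human TDP-43 (hTDP-43) or with the ALS mutant hTDP-43 A315T, and 2 cultures of each were grown, 1 for each replicate number. All MN1 cultures received 100 µg/ml cycloheximide for 3 min before lysis. Footprints came from the monosome fraction of an RNase I digest, whereas total RNA was selected by its poly(A) tail and fragmented. The library types therefore differ in poly(A) selection as well as in ribosome protection, and effects of these steps cannot be told apart here. Both libraries of a culture come from bulk cells, in which fewer cells with an mRNA and fewer copies per cell cannot be told apart.

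In ribosome profiling, a nuclease digests mRNA that is not covered by a ribosome, and the short pieces left are sequenced. The number of footprints on an mRNA depends on how many copies of it there are and on how densely ribosomes sit on each copy. Dividing by the reads of total mRNA leaves the density per mRNA, and mRNAs are known to differ in this density through their 5′UTRs, upstream reading frames, regulatory proteins and length.

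Assigned reads ranged from 332370 to 1219222 per footprint library (median 740239.5) and from 1328528 to 2988339 per total mRNA library (median 1816461). A level of 3 counts corresponds to 2.46 to 9.03 CPM (counts scaled to 1e+06 assigned reads) in footprints and to 1.00 to 2.26 CPM in total mRNA. Levels of genes are given in CPM of the tested genes' reads after scaling between libraries (TMM), so both scales differ somewhat. Markers of sympathetic neuroblasts summed to between 1460 and 1960 CPM in total mRNA, those of neurons in general to between 1180 and 1400 CPM and those of motor neurons to between 807 and 1070 CPM. These sums rest on few genes. Among neuroblast markers, Hand2 (median 1249 CPM) and Phox2a (405 CPM) were high, whereas Th (12.2 CPM) and Dbh (13.5 CPM) were low. Among motor neuron markers, Prph had a median of 865 CPM. Of 9 motor neuron markers, 3 (Isl1, Prph and Slc18a3) were high enough to be tested, and the motor neuron factor Mnx1 had at most 3 counts in every total mRNA library. The summed markers of astrocytes, oligodendrocytes, microglia and fibroblasts did not exceed 15.5 CPM in any total mRNA library, with Aldh1l1, Mog, Csf1r and Lum at 0 counts in all libraries.

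The ratio used throughout is the log2 fold difference of footprints minus total mRNA, fitted with edgeR's quasi-likelihood test with the culture as a block. A ratio of 0 means that a gene takes the same share of both library types after scaling, so ratios are relative to the typical gene and not absolute densities. Of 21578 protein-coding genes listed, 9300 had enough counts to be tested. Their median ratio was -0.04, the quartiles were -0.55 and 0.46, and the 5th and 95th percentiles were -1.30 and 1.15. The median standard error (SE) of a gene was 0.141, and 82.2% of genes lay within 2-fold of equality.

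At an adjusted p below 0.05 (Benjamini-Hochberg), 2935 of the 9300 genes (31.6%) were higher in footprints and 3086 (33.2%) were lower. Of the called genes, 1991 differed by less than 1.5-fold. When the difference was tested against 2-fold, 673 genes (7.24%) passed, of which 307 (3.3% of all tested) were higher and 366 (3.94%) lower. In 1632 genes (17.5%) all 6 footprint libraries lay above all 6 total mRNA libraries in CPM, and in 1799 (19.3%) all lay below. Ratios of single cultures correlated across the 9300 genes with r between 0.742 and 0.837 for cultures of the same replicate number and between 0.687 and 0.83 for the others, where genes are not independent replicates. The calls beyond 2-fold depended on the tool, with 359 of all 9421 tested genes by DESeq2 against 731 (7.76%) by edgeR, of which 341 (3.62%) were higher and 390 (4.14%) lower.

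**Figure D1:**
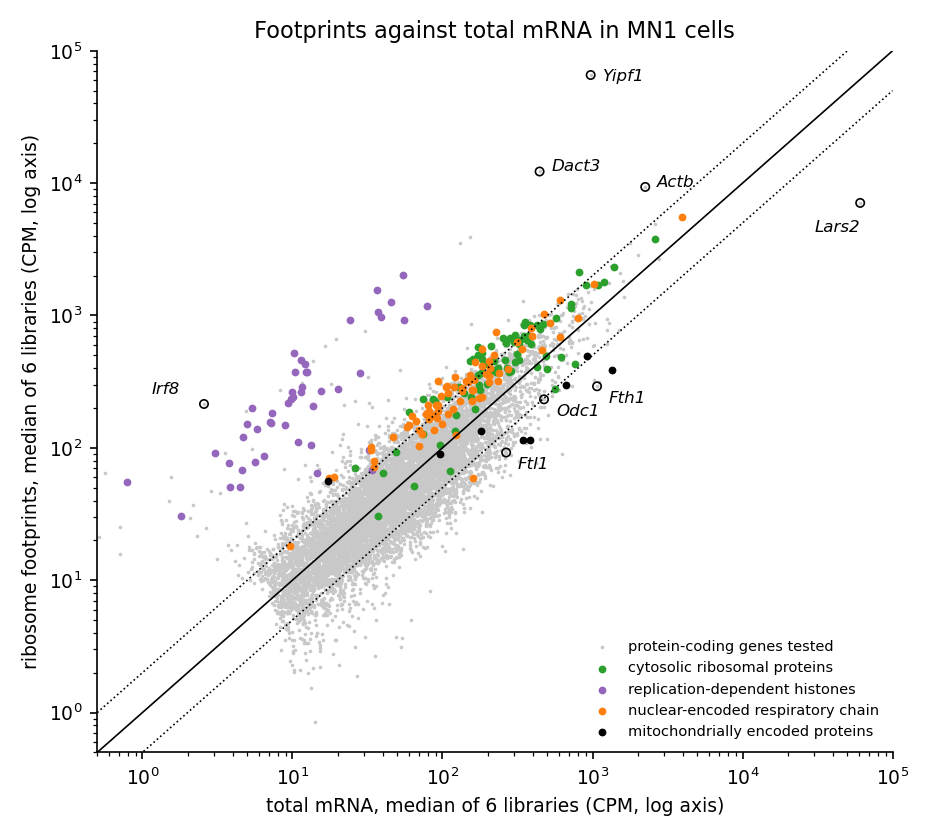
Median CPM over the 6 total mRNA libraries (x axis, log scale) against the median over the 6 footprint libraries (y axis, log scale), with 1 point for each protein-coding gene tested; the solid line marks equality and the dotted lines 2-fold. Replication-dependent histones (purple) lie far above the line, ribosomal proteins (green) and respiratory chain subunits (orange) mostly above it, and Fth1, Ftl1 and Lars2 below it.

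Known gene groups differed in the direction and size of their ratios. Of the 28 groups with members tested, replication-dependent histones had the highest median ratio, 4.58. They were followed by nuclear-encoded subunits of the respiratory chain (1.05), cytosolic ribosomal proteins (0.83) and the proteasome (0.80), leaving aside 4 genes that the study had selected on these samples. Low medians were found for proteins encoded in mitochondrial DNA (-1.10), for stress genes with upstream reading frames (-0.67), for mRNAs with iron-responsive elements (-0.42), for selenoproteins (-0.38) and for polyamine genes (-0.37). Of these, the median of the polyamine genes was -0.54 in replicate 1 alone and -0.06 in replicate 2 alone. The lists were chosen with earlier results of these data known, and their counts are set beside the shares over all genes (31.6% higher, 33.2% lower) as a description. For counts beyond 2-fold these shares were 3.3% higher and 3.94% lower. For counts without overlap of the library types they were 17.5% above and 19.3% below.

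**Figure D2:**
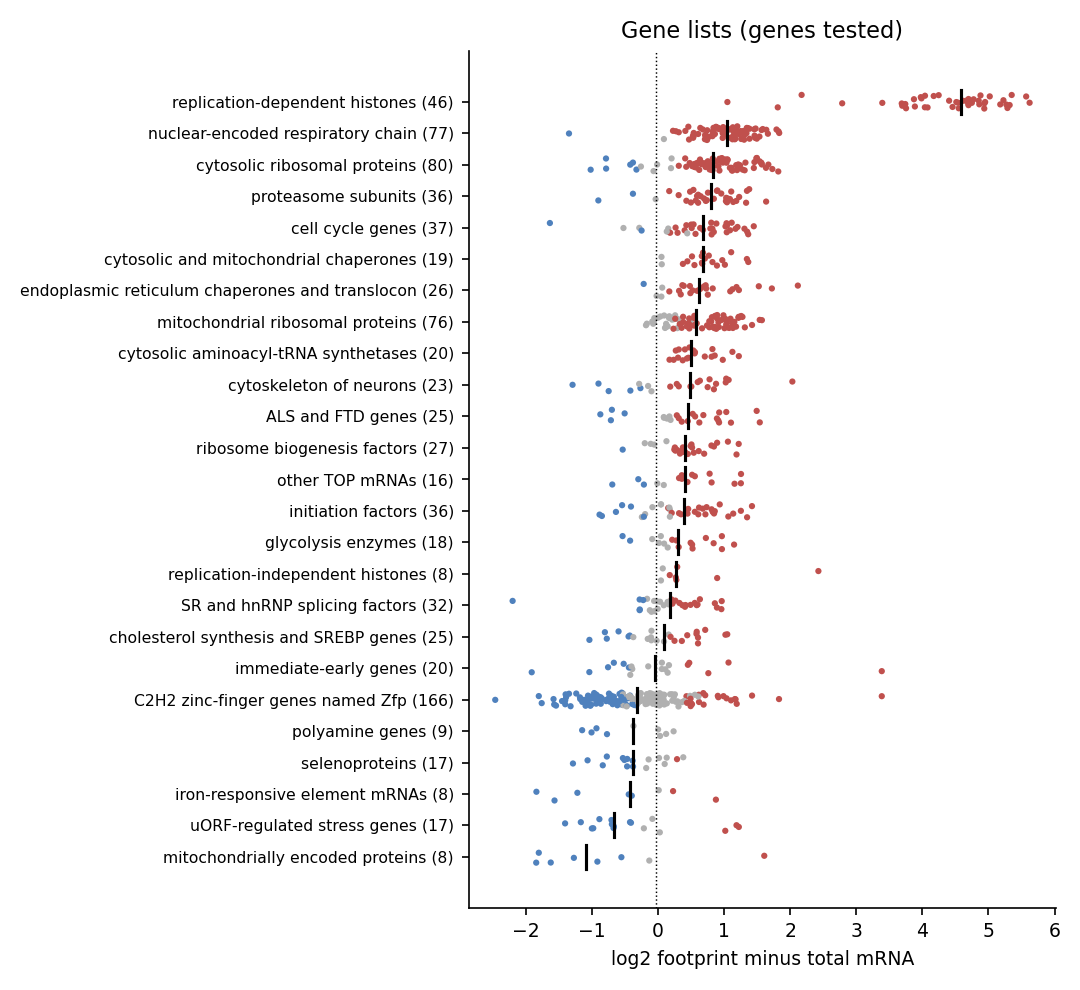
Log2 ratio of footprints to total mRNA (x axis) for the members of each gene list (rows), with 1 dot for each gene tested: red is higher and blue lower at an adjusted p below 0.05, grey did not pass. The black bar is the list's median and the dotted line the median of all 9300 protein-coding genes, -0.04.

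Replication-dependent histones, which package newly made DNA in S phase, had the most extreme ratios of the described lists. Their mRNAs are the known exception to polyadenylation: they end in a conserved stem-loop that the protein SLBP binds, and most lack a poly(A) tail. Replication-independent histones, in contrast, are mostly made throughout the cell cycle from polyadenylated mRNAs, although H2afx, counted among them here, also holds the stem-loop motif. The stem-loops of the H4 histone with the highest ratio, of the H4 histone with most total mRNA reads per length among the listed histones that passed, and of the 2 genes outside this list that hold the motif are shown, with the 16-base element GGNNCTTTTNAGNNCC in capitals, since nearly all histones of the list hold it.

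Hist1h4f (chr13:23551286-23551311, minus strand, 3′UTR): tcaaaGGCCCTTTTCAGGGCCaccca
Hist1h4d (chr13:23581945-23581970, plus strand, 3′UTR): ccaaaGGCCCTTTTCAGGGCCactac
H2afx (chr9:44335235-44335260, plus strand, 3′UTR): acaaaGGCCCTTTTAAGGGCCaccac
Lrrc75b (chr10:75553541-75553566, minus strand, 3′UTR): gactgGGGTCTTTTAAGAACCaggta

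Coordinates are those of GRCm38, and the element was searched on the mRNA strand within 100 bases after the stop codon. It was found in 46 of 9286 tested genes searched (0.495%): in 44 of the 46 replication-dependent histones tested (95.7%) and in 2 of the 9240 other genes (0.0216%). A match of these letters is a description of the sequence and not a test of its use.

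All 46 replication-dependent histones tested were higher in footprints, 45 of them beyond 2-fold (3.3% over all genes). In all 46 the library types did not overlap (17.5% over all genes). Of the 65 listed, 19 had too few counts, and 16 of the 46 were kept only through their footprints, with a median total mRNA level under the filter's 7.85 CPM, so the count over tested members is a description and cannot stand for the whole list. Hist1h4f had 475, 522 and 658 CPM in footprints (lowest, median and highest of 6) and 7.97, 10.3 and 14.9 CPM in total mRNA. Its ratio was 5.62 ± 0.11 (SE), a 49.3-fold difference (adjusted p = 4.6e-21). The member that passed with most total mRNA reads per length of its counted exons, Hist1h4d, had 809, 975 and 1154 CPM against 30.01, 38.8 and 50.5 CPM, a ratio of 4.61 ± 0.09. At the other end, Hist1h2af (1.05 ± 0.14), Hist1h2ap (1.81) and Hist1h4i (2.17) had the smallest ratios. Together these histones made up 1.41 to 1.84% of footprint reads and 0.06 to 0.10% of total mRNA reads. Histone copies within a cluster are nearly identical, and uniquely mapped reads can be split between them.

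Among 8 replication-independent histones tested, 6 were higher and none lower, with a median of 0.27. H2afx, the histone phosphorylated at DNA breaks, stood apart from the other members. It had 650, 857 and 1055 CPM in footprints and 146, 155 and 172 CPM in total mRNA, so the library types did not overlap, and its ratio was 2.43 ± 0.09 (adjusted p = 7.8e-16). The next highest member, H3f3a, had a ratio of 0.90, and H1f0, a linker histone, had 0.18 ± 0.07. Lrrc75b, the other gene with the stem-loop motif, was lower in footprints (-1.70 ± 0.14), with no overlap between the library types. Poly(A) selection and ribosome density cannot be told apart for mRNAs that lack a tail.

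Cytosolic ribosomal proteins build the ribosome itself, and their mRNAs belong to the TOP class, known for an oligopyrimidine tract at the 5′ end through which mTOR signalling controls their translation. Of 80 members tested (all that were listed), 69 were higher in footprints and 6 lower, 19 were higher beyond 2-fold and none lower beyond 2-fold. Their median ratio was 0.83 (range of the 6 culture medians 0.63 to 1.04). All footprint libraries lay above all total mRNA libraries in 66 (17.5% over all genes). They took 4.06 to 4.64% of footprint reads and 2.48 to 3.34% of total mRNA reads. To show how the start of these mRNAs varied, windows of 21 bases centred on the RefSeq start (GRCm38.p6) are given for members with long and short runs, with the longest run of C and T in capitals.

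Rpl35 (chr2:39005121-39005141, minus strand): ccgCCCTTTCCTCTTTCTCTC
Rpl7a (chr2:26910797-26910817, plus strand): CTCTTCTTTCTTTCTCCagca
Rps27 (chr3:90213638-90213658, minus strand): cgctttcgCTCCTTTCCggcg
Rpsa (chr9:120127756-120127776, plus strand): ttatttaaggacgtcaTTTCC

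A run of at least 8 C or T bases on the mRNA strand was found in this window in 20 of 59 ribosomal protein genes with a RefSeq start (33.9%) and in 576 of 7444 tested genes (7.74%). The ratio did not divide along it: the median was 0.81 in the 20 ribosomal protein genes with a run and 0.96 in the 39 without. Rpl35 (ratio 1.73), Rpl7a (1.21) and Rps27 (1.67) hold the longer runs shown. The start sites are annotated ones and were not measured in these cells.

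Rpl37, of the large subunit, had the highest ratio of the ribosomal proteins. It reached 522, 574 and 652 CPM in footprints and 106, 172 and 195 CPM in total mRNA, which did not overlap, and its ratio was 1.82 ± 0.08 (adjusted p = 5.0e-14). The most abundant per length in total mRNA among those that passed, Rpl8, had 2110, 2334 and 2395 CPM against 1165, 1396 and 1492 CPM, a ratio of 0.75 ± 0.08. The 6 members that were lower included Rpsa, the laminin receptor and small-subunit protein (-1.02 ± 0.10), Rplp0 of the ribosomal stalk (-0.79), Rpl18 (-0.42), Rps2 (-0.38) and Rplp1, also of the stalk (-0.33). In Rpsa the library types did not overlap, with 209, 281 and 354 CPM in footprints below 516, 566 and 685 CPM in total mRNA. Ribosomal protein genes have many processed pseudogenes that can take or lose uniquely mapped reads, so single members are uncertain.

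The other TOP mRNAs, which encode elongation factors, some initiation factors and other abundant proteins, were more mixed, with 11 of 16 higher, 3 lower and a median of 0.40. Btf3, part of the nascent polypeptide-associated complex, had the highest ratio (1.26 ± 0.08). The lowest was that of Pabpc1, the poly(A)-binding protein, which is known to bind a stretch of A in its own 5′UTR (-0.69 ± 0.08, with 400, 518 and 638 CPM in footprints and 783, 806 and 936 CPM in total mRNA, not overlapping). Eef1a1, the factor that brings aminoacyl-tRNA to the ribosome, had 0.52 ± 0.10.

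Translation initiation factors showed a similar spread: 22 of 36 tested were higher, 6 lower, and the median was 0.40. The subunits of eIF3 were on the high side, led by Eif3m (1.42 ± 0.10) and Eif3e (1.25), as were the GTPase Eif5b (1.35) and Eif2s1 (1.06). Lower were Eif2s3x (-0.88 ± 0.09), another subunit of eIF2, Eif4g2 (-0.85), known to initiate from a GUG codon, the helicase Eif4a2 (-0.64), Eif4h (-0.54), Eif1 (-0.41) and Eif4b (-0.21). Of the cytosolic aminoacyl-tRNA synthetases, which charge tRNAs with amino acids, 20 of 20 were higher, with a median of 0.51, from Mars (0.17 ± 0.07) to Eprs (1.22 ± 0.08). Ribosome biogenesis factors had a median of 0.41, with 22 of 27 higher and 1 lower: Nop10, of the H/ACA complex, was at 1.22 ± 0.10, and Ubtf, a factor of RNA polymerase I, was the lower one at -0.53 ± 0.08.

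Subunits of the respiratory chain and ATP synthase come from the nuclear and from the mitochondrial genome, and the nuclear-encoded ones are translated by cytosolic ribosomes. Of 77 nuclear-encoded members tested, 75 were higher and 1 lower, and 26 were higher beyond 2-fold. The median was 1.05 (culture medians 0.89 to 1.32), and the library types did not overlap in the higher direction in 72 (17.5% over all genes). The members' share of reads was 2.68 to 3.01% in footprints and 1.66 to 1.97% in total mRNA. Ndufb4 of complex I had the highest ratio (1.83 ± 0.18), with 44.6, 58.9 and 72.9 CPM in footprints and 9.09, 17.5 and 20.1 CPM in total mRNA. Atp5b, the catalytic subunit of ATP synthase and the most abundant member that passed per length in total mRNA, had 0.54 ± 0.08. The single lower member was Cox7a2l, a factor of respiratory supercomplexes, at -1.35 ± 0.13, with 40.2, 59.3 and 86.3 CPM below 128, 161 and 186 CPM. Uqcr10 did not pass the test (0.09).

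Mitochondrial ribosomal proteins, also made in the cytosol, were higher in 55 of 76 tested and lower in none, with a median of 0.58. Mrpl32 was the highest (1.57 ± 0.17), and Mrpl49 was the lowest that passed (0.23 ± 0.09). Mrpl12, the most abundant of them, was at 0.47 ± 0.07.

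Proteins encoded in mitochondrial DNA are translated by mitochondrial ribosomes, inside the organelle. Of 13 listed, 8 were tested, of which 6 were lower in footprints and 1 higher. mt-Co1, a core subunit of complex IV, had 239, 386 and 489 CPM in footprints and 1039, 1354 and 1488 CPM in total mRNA, a ratio of -1.80 ± 0.09 (adjusted p = 3.4e-13). mt-Nd1 of complex I was at -1.84 ± 0.08, and mt-Atp8, which shares bases with mt-Atp6, was the member that was higher (1.61 ± 0.19), although its library types overlapped. Exons of 7 of the 8 overlap another gene, and the counting used no strand, so reads of neighbours cannot be separated. As a group they took 0.10 to 0.21% of footprint reads and 0.35 to 0.52% of total mRNA reads.

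The proteasome, which degrades ubiquitinated proteins, was high as a group. Of 36 subunits tested, 33 were higher and 2 lower, with a median of 0.80 and culture medians from 0.76 to 0.95. Psma6, of the core particle and the most abundant member that passed per length in total mRNA, had 852, 883 and 957 CPM in footprints and 333, 386 and 400 CPM in total mRNA, a ratio of 1.23 ± 0.07 with no overlap. The ATPase Psmc6 of the cap had the highest ratio, 1.64 ± 0.10. The lower ones were both of the regulatory particle or its assembly: Psmd11 (-0.90 ± 0.16) and Psmd9 (-0.38).

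Chaperones of the cytosol and mitochondria were higher in 17 of 19 tested and lower in none, with a median of 0.68. Hsp90aa1 (1.37 ± 0.11) and Hspa8 (1.35) led the list, and Hsp90ab1, the most abundant per length in total mRNA of those that passed, was at 0.89 ± 0.08, whereas Hspe1 (0.06) and Dnajb1 (0.05) did not pass. Of chaperones and translocon subunits of the endoplasmic reticulum, where secreted proteins fold, 22 of 26 were higher and 1 lower, with a median of 0.62. Sec61b, of the translocation channel, had 215, 240 and 370 CPM in footprints and 49.7, 56.9 and 71.7 CPM in total mRNA, a ratio of 2.12 ± 0.12 with no overlap. Hsp90b1 (1.72), Sec61g (1.52), Pdia3 (1.22) and the BiP gene Hspa5 (1.19) were also high. The member that was lower was Ssr3 (-0.22 ± 0.09).

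Iron-responsive elements are hairpins bound by the iron regulatory proteins when iron is scarce. In the 5′UTR of ferritin mRNAs the bound protein blocks initiation, whereas in the 3′UTR of the transferrin receptor mRNA it protects the mRNA from decay. The elements of ferritin heavy and light chain and 2 of the 4 found in the transferrin receptor gene are shown because these genes had very unlike ratios, with the 6-base loop CAGTGN in capitals.

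Fth1 (chr19:9982732-9982760, plus strand, 5′UTR): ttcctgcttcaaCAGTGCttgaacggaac
Ftl1 (chr7:45459779-45459807, minus strand, 5′UTR): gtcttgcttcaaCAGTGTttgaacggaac
Tfrc (chr16:32631219-32631247, plus strand, 3′UTR): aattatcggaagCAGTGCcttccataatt
Tfrc (chr16:32631710-32631738, plus strand, 3′UTR): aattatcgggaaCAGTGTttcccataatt

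The search on the mRNA strand asked for CNNNNNCAGTGN, with no G after CAGTG, followed by 5 bases that pair with the 5 before the loop, G with T allowed. It was met in the 5′UTR of 10 of 9297 tested genes (0.108%) and in the 3′UTR of 52 (0.559%). The 10 genes with a match in the 5′UTR had a median ratio of 0.13, so the ferritins were not typical of them. Nasp (1.21) and Eif2s1 (1.06), which also met the search, were higher in footprints.

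Both ferritin genes, whose products store iron, were lower in footprints beyond 2-fold. Fth1 had 264, 292 and 340 CPM in footprints and 1012, 1072 and 1119 CPM in total mRNA, a ratio of -1.84 ± 0.08, or 3.58-fold lower (adjusted p = 4.3e-15). Ftl1 had 74.0, 92.2 and 97.8 CPM below 230, 266 and 346 CPM, a ratio of -1.57 ± 0.09. In both genes the library types were well apart in all 6 cultures. Tfrc, which brings iron into cells, lay on the other side, with 261, 293 and 407 CPM above 122.9, 162 and 223 CPM and a ratio of 0.88 ± 0.08. Of 8 listed genes tested, 5 were lower and 2 higher in all, and the other members included Cdc42bpa (-1.22 ± 0.15), Pfn2 (-0.44 ± 0.16), the iron transporter gene Slc11a2 (-0.40 ± 0.10) and Cdc14a, which did not pass (0.01).

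**Figure D3:**
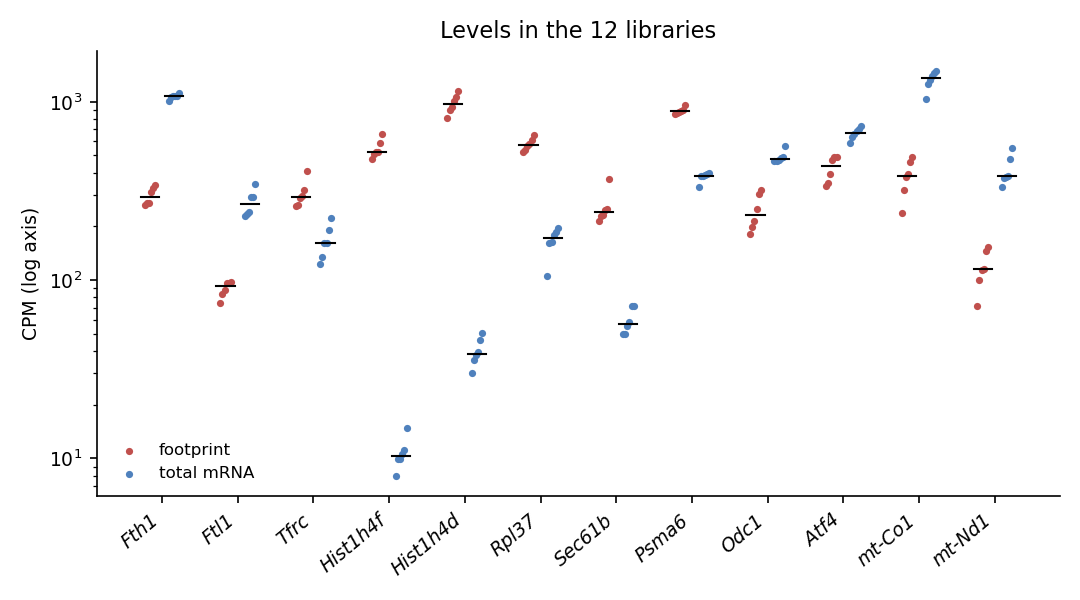
CPM (y axis, log scale) of 12 genes in each of the 6 footprint and 6 total mRNA libraries, with 1 point for each library and a bar at the median. Fth1, Ftl1, Odc1, Atf4, mt-Co1 and mt-Nd1 lie lower in footprints with no overlap, and Tfrc, the H4 histones, Rpl37, Sec61b and Psma6 lie higher with no overlap.

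Several genes of the integrated stress response are known to be held back by upstream open reading frames (uORFs) until eIF2 is phosphorylated. Of 17 such genes tested, 11 were lower and 3 higher, and the median was -0.67. Atf4, the transcription factor of this response, had 336, 435 and 492.6 CPM in footprints and 590, 671 and 733 CPM in total mRNA, a ratio of -0.67 ± 0.08 with no overlap. Atf5 (-0.67 ± 0.08), Ddit3, which encodes CHOP (-0.42 ± 0.09), and Ppp1r15b, a subunit that brings a phosphatase to eIF2 (-1.17 ± 0.08), were lower too. Ccng1 was the lowest (-1.41 ± 0.22). The 3 that were higher were Eprs, Hspa5 and Uchl5 (1.02). Counts cover whole genes, so footprints on the uORFs themselves are included.

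Polyamine genes are known for feedback through frameshifting and upstream frames. None of the 9 tested was higher and 4 were lower: Odc1, the rate-limiting enzyme (-1.01 ± 0.09), its antizymes Oaz1 (-0.77 ± 0.08) and Oaz2 (-1.15 ± 0.13), and Azin2 (-0.93), with culture medians of the 9 from -0.79 to -0.05. Odc1 had 182, 233 and 318 CPM in footprints and 465, 475 and 562 CPM in total mRNA, with no overlap. Selenoproteins, which carry selenocysteine at a recoded stop codon, were lower in 10 of 17 tested and higher in 1. Selenok was the lowest (-1.29 ± 0.22) and Selenoi the higher one (0.29 ± 0.12). The glutathione peroxidase Gpx4, the most abundant member that passed per length in total mRNA, had 190, 251 and 314.8 CPM in footprints against 291, 335 and 447 CPM in total mRNA, which overlapped, with a ratio of -0.51 ± 0.07.

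Among cytoskeleton genes of neurons, 15 of 23 tested were higher and 5 lower (median 0.49), and near relatives went opposite ways. Actb, cytoplasmic beta-actin, had 8410, 9359 and 10600 CPM in footprints and 2078, 2246 and 2555 CPM in total mRNA, a ratio of 2.03 ± 0.09, whereas gamma-actin, Actg1, was at -0.90. Tubb5 was at 1.02 and Tuba1b at -0.75. Pseudogenes and near-identical copies of actin and tubulin genes make these single values uncertain. The neurofilament gene Nefl was the lowest (-1.29 ± 0.28), with 17.7 CPM at the median of total mRNA, through which alone it was kept, and the intermediate filament gene Vim was at 1.07.

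Genes linked to ALS and frontotemporal dementia had 16 of 25 higher and 4 lower, with a median of 0.45. Anxa11 was the highest (1.54 ± 0.21), followed by Ubqln2 (1.49) and Matr3 (1.10). Sod1, superoxide dismutase, had 415, 458 and 510 CPM against 212, 245 and 276 CPM (0.91 ± 0.08). The lower ones included the kinesin Kif5a (-0.87 ± 0.19), C9orf72 (-0.71) and Vapb (-0.70). Tardbp, the mouse gene for TDP-43, did not pass (0.17). Splicing factors of the SR and hnRNP families, many of which regulate their own mRNAs, were closer to equality, with 16 of 32 higher, 5 lower and a median of 0.18. Their extremes were Hnrnpl (0.96 ± 0.07) and Hnrnpu (-2.20 ± 0.18, with 4.95, 14.4 and 26.6 CPM below 55.6, 65.4 and 92.0 CPM).

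Genes of the cell cycle were mostly high, with 29 of 37 tested higher, 2 lower and a median of 0.68. The spindle kinesin Kif11 was the highest (1.45 ± 0.12), and the helicase subunit Mcm4 (1.37), Cenpf (1.35) and Bub1 (1.31) were next. E2f1, which drives entry into S phase, had 103, 141 and 156 CPM in footprints and 361, 434 and 490 CPM in total mRNA, a ratio of -1.64 ± 0.10 with no overlap, and Ccnd3 was the other lower member (-0.25). Of glycolysis enzymes 11 of 18 were higher and 2 lower (median 0.30), from Pgk1 (1.15 ± 0.09) to Eno2 (-0.54 ± 0.14). Cholesterol genes were divided, with 11 of 25 higher, 6 lower and a median of 0.09: Nsdhl (1.05 ± 0.13) and Ebp (1.02) were high, and Idi1 (-1.04 ± 0.13) and Srebf2, a regulator of the pathway (-0.80), were low.

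C2H2 zinc-finger genes named Zfp had more members lower than higher in footprints. Of 166 tested of 391 listed, 73 were lower and 22 higher, with a median of -0.32, and 24 of the 166 were kept only through their total mRNA. Zfp598, which ubiquitinates collided ribosomes, was the most abundant per length in total mRNA of those that passed (-1.05 ± 0.09), and Zfp174, kept only through its total mRNA, was the lowest (-2.46 ± 0.27). Zfp36, the highest with a ratio of 3.39 ± 0.21, encodes tristetraprolin, a CCCH and not a C2H2 zinc-finger protein that promotes decay of AU-rich mRNAs. It had 42.3, 69.5 and 222 CPM in footprints and 7.10, 8.79 and 10.6 CPM in total mRNA. Immediate-early genes as a list showed no side, with 5 of 20 higher, 6 lower and a median of -0.05, and the nuclear receptor gene Nr4a1, kept only through its total mRNA, was the lowest (-1.91 ± 0.32). Of 44 collagen genes only 3 were tested, of which Col18a1 (0.34 ± 0.08) and Col4a2 (0.82 ± 0.26) were higher. None of 16 nuclear long non-coding RNAs and 1 of 15 small nucleolar RNA host genes could be tested. This was Zfas1, which was lower (-0.90 ± 0.14).

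Outside the lists, 100 protein-coding genes passed the naming rule (beyond 2-fold, the same direction in 6 of 6 cultures, a mean of at least 20 CPM, no exon shared with another gene) in the higher and 193 in the lower direction. The 15 highest included genes better known from other tissues. Irf8, a transcription factor of myeloid cells (6.14 ± 0.22), and Cybb, the catalytic subunit of the phagocyte oxidase (5.20 ± 0.19), were among them, as were Crx, a photoreceptor factor (4.81 ± 0.25), Tdrd6 of germ cells (5.11 ± 0.12) and Kl, which encodes klotho (4.56 ± 0.18). The others were Tspan5, Adarb2, Epha5, Dact3, Rnf157, Plxdc2, Ttll6, Anks6, Uevld and Bag5, with ratios from 5.59 to 3.06. Cybb had 95.3, 273 and 655 CPM in footprints and 6.85, 8.22 and 9.57 CPM in total mRNA. Dact3, an inhibitor of Wnt signalling, had 3999, 12240 and 34080 CPM against 188, 444 and 828 CPM and took 0.374 to 3.09% of all footprint reads. In 14 of the 15 the library types did not overlap, against 17.5% of all protein-coding genes tested. The naming rule picks such genes, so this count is a description only.

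Irf8, Tspan5, Crx, Plxdc2, Adarb2, Ttll6 and Anks6 were kept only through their footprints, since their median total mRNA level was under 7.85 CPM. The median total mRNA level was 2.57 CPM for Irf8, 1.55 CPM for Tspan5 and 2.18 CPM for Crx, and the fitted ratios of such genes depend on the prior count. Markers of microglia, in which Irf8 and Cybb are also expressed, summed to at most 15.5 CPM in total mRNA and to between 2.85 and 9.94 CPM in footprints, and Csf1r was at 0 counts in all 12 libraries. None of the 15 genes held an exact run of at least 20 bases of an annotated tRNA or rRNA.

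Such runs were found in 109 of 9300 tested genes (1.17%), in 12 of the 307 that were higher beyond 2-fold (3.91%) and in 2 of the 366 that were lower (0.546%). Among the 38 genes with a ratio over 2.5 that are not replication-dependent histones, 7 held one (18.4%), all of tRNA. These were chosen after their values were seen. Yipf1, a Golgi membrane protein, had 17330, 65580 and 96310 CPM in footprints and 812, 972 and 1229 CPM in total mRNA, a ratio of 5.55 ± 0.27. It took 1.65 to 8.32% of all footprint reads and shares 22 bases with a tRNA. Hes7 (3.73 ± 0.18, a run of 87 bases) and Ttyh1 (2.55 ± 0.24, a run of 39 bases) were others. Exons of Yipf1, Hes7 and Ttyh1 overlap another gene, and the counting used no strand, so reads of neighbours cannot be separated. The authors removed reads that aligned to annotated non-coding RNAs before counting, and the part of tRNA fragments in these counts was not tested.

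The fitted ratios of the 15 lowest genes outside the lists ranged from -3.65 to -2.06. Lars2, the mitochondrial leucyl-tRNA synthetase, took 5.84 to 7.21% of all total mRNA reads and 0.407 to 1.25% of footprint reads, with a ratio of -3.02 ± 0.18. It had 4480, 7087 and 13390 CPM in footprints and 54780, 60800 and 69670 CPM in total mRNA. No exact run of the annotated tRNAs and rRNAs searched was found in Lars2. Large-subunit rRNA was searched only from a partial gene and without mismatches, so absence of such sequence is not shown. The part of rRNA-like reads in the counts of Lars2 was not tested. The Polycomb gene Cbx8 (-2.76 ± 0.13), the fatty acid elongase Elovl4 (-2.44 ± 0.14), the cytochrome oxidase assembly factor Coa5 (-2.09 ± 0.13) and the kinase Csnk1g2 (-2.06 ± 0.10) lay well above 3 counts in both library types. Coding sequence made up 30.4, 31.3, 5.82 and 68.4% of their transcripts in the same order, against a median of 52.1% over all protein-coding genes tested. Total mRNA reads on UTRs enter these ratios, and their part was not tested. Cbx8 had 56.3, 89.8 and 127 CPM below 329, 621 and 848 CPM. The kinesin Kif21b (-3.10 ± 0.17) had few footprints. Csmd3, the protease Adamts1, Xpnpep2, Nlrc3 and the receptor Gpr45 passed the filter on low counts only through their total mRNA, where they were high, so their place among the lowest is a description. Adamts1 had a median of 8.27 CPM in footprints and 82.9 CPM in total mRNA after TMM scaling, which the filter's 7.85 CPM of assigned reads does not use. Csmd3 (medians 3.12 and 53.0 CPM) and Xpnpep2 (2.68 and 35.5 CPM) had a footprint library without reads. Their footprint medians lay near what 3 counts are worth in a footprint library (2.46 to 9.03 CPM of assigned reads). The size of the ratios of Csmd3 and Xpnpep2 depends on the prior count. The remaining ones were Fam167a, Zkscan5, Opn3 and Cspg5. Library types did not overlap in 14 of the 15, with Gpr45 as the exception, against 19.3% of all protein-coding genes tested. This count too follows from how the genes were picked.

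Ratios also varied with the length and composition of the mRNA. With genes in 5 equal bins, the median ratio was 0.36, 0.09, -0.07, -0.20 and -0.30 from the shortest to the longest 3′UTR (Spearman's rho across 9297 genes -0.283). Coding length had a weaker relation, with medians of 0.22, -0.02, -0.11, -0.10 and -0.12 (rho -0.133), so only the shortest bin, 78 to 756 bases, stood apart. With members of the lists left out this bin had a median of 0.10 and the longest -0.13. The direction for coding length turned (rho 0.23) when total mRNA was divided by the coding share of each transcript. This division lowers genes with long UTRs, so it does not show the relation with UTR reads taken out. These are descriptions across genes, which are not independent and share the same 12 libraries.

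From the lowest to the highest GC content of the coding sequence, the median ratio was 0.36, 0.09, -0.05, -0.20 and -0.40 (rho -0.323), and rho in the single cultures ranged from -0.352 to -0.172. GC content of the 5′UTR gave rho -0.24. Genes without an ATG in the 5′UTR had a median of 0.12 (4378 genes), those with 1 had -0.11, those with 2 had -0.19 and those with 3 or more had -0.30 (1667 genes). Among genes with 5′UTRs over 100 and up to 200 bases only, the medians were 0.15, -0.11, -0.27 and -0.24 in the same order. Reads in libraries of short fragments can depend on GC content, and its part in these values was not tested.

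**Figure D4:**
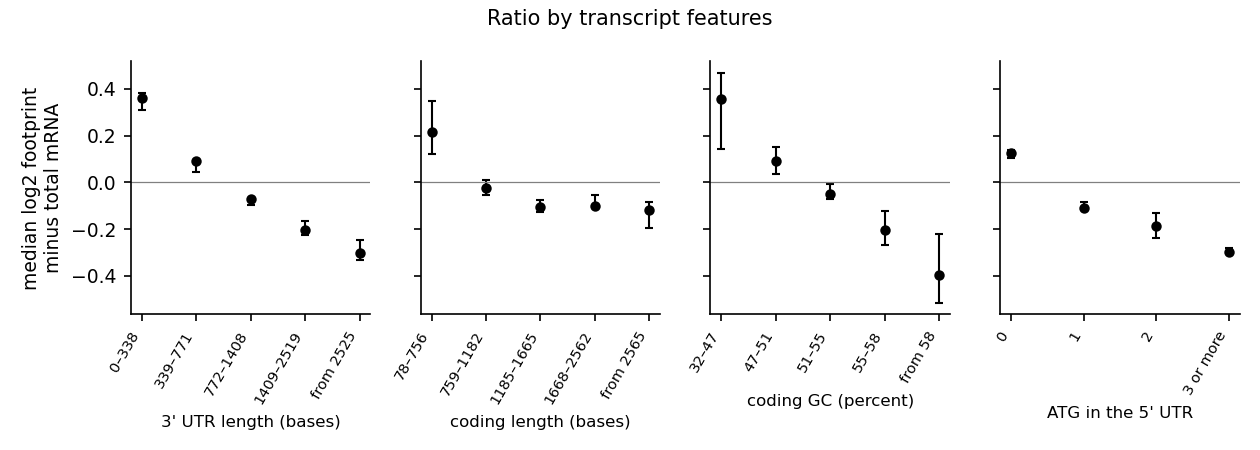
Median log2 ratio of footprints to total mRNA (y axis) by 5 equal bins of 3′UTR length, coding length and coding GC content, and by the number of ATG triplets in the 5′UTR; bars give the range of the 6 culture medians. The medians fall from 0.36 to -0.30 with 3′UTR length, from 0.36 to -0.40 with coding GC content and from 0.12 to -0.30 with ATG number.

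Reads were counted over whole exons, so total mRNA reads on UTRs enter the ratio while few ribosomes are known to sit on 3′UTRs. In 1 alternative, the coding share offset, total mRNA was divided by the coding share of each gene's transcript. This lowers the ratios of genes with long UTRs further, which is opposite to taking out UTR reads. Removal of UTR reads was not run. The rank correlation of the ratio with the coding share was 0.168 without the offset and 0.728 under it. Under the offset 723 of 6019 calls changed direction, 397 of them past the threshold the other way. This offset is itself built from UTR and coding lengths. Under it the medians from the shortest to the longest coding sequence were -0.47, -0.37, -0.23, -0.02 and 0.30 (rho 0.23), the reverse of the order without it. For 3′UTR length the rank correlation became -0.644 and for coding GC content -0.157. Of 28 medians, that of all protein-coding genes (-0.11) included, 6 moved by no more than the SD of the culture medians, 20 moved by more and 2 changed sign. That of the proteins encoded in mitochondrial DNA, with a median coding share of 100%, was raised by this division to -0.15. That of immediate-early genes was -0.61. Other list medians were 0.96 for ribosomal proteins, 1.08 for the respiratory chain, 1.27 for the proteasome, 4.75 for replication-dependent histones and -0.54 for stress genes with upstream frames. The medians of replication-independent histones (-0.46) and of SR and hnRNP factors (-0.13) changed sign. Of the genes named above, Mrpl49 (-0.64), H1f0 (-0.69), Selenoi (-1.27) and Nop10 (-0.34) had a negative ratio under this offset. Their coding shares were low (28.4, 28.5, 17.6 and 17.6% in the same order), and the offset lowers such genes by its construction.

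The ratio was then compared between the transfections. At an adjusted p below 0.05, edgeR's quasi-likelihood test found 0 of 9421 genes (0%) whose ratio differed between GFP, hTDP-43 and hTDP-43 A315T, with 279 at an unadjusted p below 0.05, and DESeq2 also found 0 (21 unadjusted). The smallest adjusted p was 0.421, shared by Dennd4a, Camta1, Epha5 and Rfc1. For Camta1, a transcriptional activator, the fitted difference from GFP was 1.60 for hTDP-43 and 2.04 for A315T. For Dennd4a, a regulator of Rab10, it was 0.30 and 1.28 in the same order. The hTDP-43 value of Camta1 rested on replicate 2, where the single-culture ratio was 2.95 (GFP 0.43). In replicate 1 the hTDP-43 culture (0.75) lay slightly below its GFP counterpart (0.89). The A315T cultures had Camta1 ratios of 1.93 in replicate 1 and 2.89 in replicate 2, each above both GFP cultures. Over all cultures, the ratios of 4 genes that the study had followed up after selecting them on these samples were 2.25 ± 0.18 for Pth1r, 1.86 ± 0.26 for Camta1, 1.60 ± 0.19 for Mid1ip1 and 0.90 ± 0.16 for Dennd4a. All 4 passed as higher when the cultures were pooled, against 31.6% of all protein-coding genes tested. Because the study selected them on these libraries, this count is a description only. The library types did not overlap in 1 of them, Pth1r, and Dennd4a had a ratio of -0.19 in GFP replicate 2.

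When the difference between replicate numbers was added as a term, the quasi-likelihood test called 16 genes. The smallest adjusted p values were those of CT010467.1 (8.0e-05), which holds a structural RNA run of 1849 bases, and Mir6236 (0.0002). Dennd4a (0.23 for hTDP-43 and 1.27 for A315T minus GFP, adjusted p = 0.00032), Camta1 (1.75 and 2.13, adjusted p = 0.00052) and Mid1ip1 (0.27 and 1.11, adjusted p = 0.0049) were among the 16, and Pth1r was not. The study had selected Dennd4a, Camta1 and Mid1ip1 on these libraries, so their calls are a description only. Leaving out 1 culture gave 15 genes without GFP replicate 1, 6 without either hTDP-43 culture, 1 without GFP replicate 2 and 0 without either hTDP-43 A315T culture.

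The ratio also differed between replicate numbers, which stand for separately dated preparations: 60 of 9421 genes (0.637%) were called, 22 higher and 38 lower in replicate 2. Bag5, a co-chaperone, had ratios of 0.57 to 1.13 in the 3 cultures of replicate 1 and of 3.70 to 4.40 in those of replicate 2, a difference of 3.12 ± 0.24 (adjusted p = 2.0e-09). E2f5 (3.67 ± 0.30), Fam43a (3.77 ± 0.31), Taf5l (2.78 ± 0.21), Ccdc88a (2.51 ± 0.26) and Stag3 (2.46 ± 0.31) moved the same way. Sorbs3 (-3.46 ± 0.50) and Mid1ip1 (-1.19 ± 0.25) were lower in replicate 2, as were the translation genes Rplp0 (-0.75), Rpl23a (-1.07), Rpl14 (-0.65), Rpsa (-0.63), Eef2 (-0.68) and Eef1a1 (-0.61). The number called ranged from 31 to 122 when 1 culture was left out, with the highest without hTDP-43 A315T replicate 1.

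**Figure D5:**
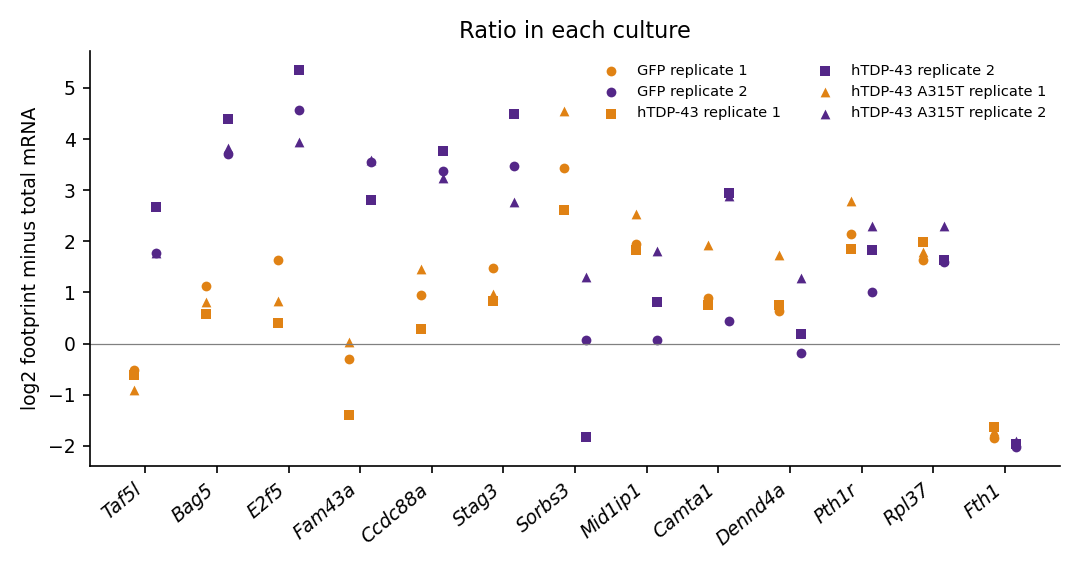
Log2 ratio of footprints to total mRNA (y axis) of 13 genes in each culture, orange for replicate 1 and purple for replicate 2, with the marker giving the transfection. In Taf5l, Bag5, E2f5, Fam43a, Ccdc88a and Stag3 the 3 cultures of replicate 2 lie above those of replicate 1, in Sorbs3 below, whereas Fth1 and Rpl37 stay between -2.02 and -1.63 and between 1.59 and 2.29.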

How the data were processed

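The authors clipped adapters with cutadapt 1.8.1, discarded reads matching annotated non-coding RNAs (Bowtie2), mapped the rest to GRCm38 with TopHat2 and counted uniquely mapped reads per gene, summed over its exons and without using strand, with featureCounts 1.4.4. The deposited values are these raw counts, 1 file for each library, not normalized or pooled, and 0 columns of per-sample values were left unmapped. The authors' own differential expression tests were not used.

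Groups, replicate numbers and library types were taken from the sample labels. Footprint and total mRNA libraries were paired as the 2 libraries of 1 culture, known from the shared transfection and replicate number, and libraries of a replicate number share a date in their titles, except the year of 1 title. Deviations of the libraries from the mean of their type correlated between the libraries of a culture with r from 0.0997 to 0.286 (mean 0.19, 9421 genes), against a mean of 0.129 between different cultures of a replicate number and of -0.15 between replicate numbers. With transfection also removed the first 2 means were 0.224 and 0.233, so these values do not separate the culture from the date. The p-values measure the spread between these cultures of 1 line.

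Genes were kept by edgeR's filterByExpr (minimum count 10, minimum total count 15, a cutoff of 7.85 CPM in at least 6 libraries), which left 9421 genes, 121 of them not protein-coding. The main test was edgeR 4.0.16 in R 4.3.3, a quasi-likelihood fit with TMM scaling, the culture as a block and library type, with Benjamini-Hochberg adjustment over all tested genes and a threshold of 0.05. A test against 2-fold used glmTreat. SEs are the absolute log2 value divided by the square root of F and are left out for genes with an unadjusted p over 0.9. CPM values of genes are counts scaled to 1e+06 reads of the tested genes after TMM scaling. The CPM of 3 counts and the filter's cutoff are scaled to 1e+06 assigned reads without TMM. Single-culture ratios used a prior count of 2. Differences of the ratio between transfections (culture as a block) and between replicate numbers were tested as interactions. The script was tested on simulated counts. Lowest, median and highest values cover the 6 libraries of a type. A floor of 3 counts covers counting error only.

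Gene names, biotypes, UTRs and stem-loop sites came from the GENCODE M21 annotation of GRCm38, start sites from RefSeq (GRCm38.p6), where 7444 tested genes and 59 ribosomal protein genes matched by symbol. Structural RNA runs are exact matches of at least 20 bases to 783 annotated tRNAs and rRNAs, with large-subunit rRNA only as a partial gene.

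In each list, the highest, the lowest and the most abundant member that passed are named, and outside the lists the 15 highest and 15 lowest by the rule given in the text. Abundance per length is the median total mRNA CPM divided by the length of the gene's counted exons. Atf5, Ddit3, Ppp1r15b, Lrrc75b, Yipf1, Hes7, Ttyh1 and other members given without an SE were named after their values were seen. A few list members that were counted are not reported by name here. Members and lists were chosen with earlier results of these data known. Alternatives were the fit without block, DESeq2 1.42.0, other scalings and filters, each culture left out and each replicate number alone. A coding share offset (total mRNA divided by the coding share) and a 1.5-fold test were also run.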

Additional observations from a re-analysis of the deposited data

Results flagged for a closer look

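Of 169 groups of 6 cultures checked for a far sample, 7 had one by Dixon's criterion, and chance alone would mark about 1 in 20 groups. In log2 ratio of footprints to total mRNA, 1 culture lay far above the others in Psmd11 (-0.39), Ccng1 (-0.54) and Eno2 (0.12), and 1 lay far below in Col4a2 (-1.26), Irf8 (3.93) and Ttyh1 (0.57). For mitochondrial ribosomal proteins, the median over the list was far above the others in 1 culture, at 0.85. The ratios of 60 genes differed between replicate numbers by a test of the difference itself, as described above.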

How the results depend on the processing

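The number of genes called between footprints and total mRNA, 6127 of 9421, stayed within 1.5 times under all alternatives run, from 4975 in replicate 2 alone to 7147 with the coding share offset. The 731 genes beyond 2-fold (341 higher, 390 lower) became 359 (213, 146) with DESeq2, 480 (280, 200) in replicate 1 alone, 2495 (871, 1624) with the coding share offset and 571 to 819 with 1 culture left out, and 2471 passed a 1.5-fold test. The share of higher ones among genes beyond 2-fold was 46.6% and became 34.9% with the offset. Without the replicate block, where culture pairing was dropped, 5861 genes were called, and 17 in place of 60 differed between replicate numbers, a fit that was chosen after seeing the data. For the difference between replicate numbers DESeq2 called 24 genes in all, and leaving out a culture gave 31 to 122 (31 without GFP replicate 1). For differences between transfections, with 0 called, no filter gave 25, the replicate term 16, and leaving out a culture 0 to 15. The coding share offset divided total mRNA by the coding share, so changes under it do not show the effect of taking out UTR reads. Under this offset the ratios of Eif5a (-0.48), Mrpl49 (-0.64), H1f0 (-0.69), Selenoi (-1.27), Dnaja1 (-0.91), Hnrnpab (-0.11), Cdk4 (-0.0441) and Nop10 (-0.34) and the medians of replication-independent histones (-0.46) and SR and hnRNP factors (-0.13) reversed. So did Taf5l (-0.68) and Fam43a (-0.30) in replicate 1 alone, the 7SK RNA gene Rn7sk (-0.35) in replicate 2 alone, the cholesterol median without a filter (-0.0084) and the median of all protein-coding genes without GFP replicate 2 (from -0.0378 to 0.0021 with 1 culture left out). The cause was not tested. Footprint depth limits the precision of genes near 3 counts.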
